A study of Homo sapiens with 2 samples.

Results

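The genes described here are TFRC, FTL, FTH1, IREB2, ACO1, FBXL5, NCOA4 and STEAP3, which take iron into the cell, store it, release it and sense it. They were chosen by name, with earlier results of these data known. Every probe set that the platform annotation lists under exactly 1 of these symbols was taken. That gave 14 of the 54675 probe sets, for 6 of the 8 genes. No probe set in the annotation used here is listed under FTH1, the ferritin heavy chain, or IREB2, which encodes iron regulatory protein IRP2, so these 2 genes were not analysed here. The cells were HCT116, a human line established from a colorectal carcinoma. One culture had been given a control siRNA (labelled Con si), and the other siRNAs against JMJD1A and JMJD1B (labelled AB-1 si), 2 days before RNA extraction. JMJD1A and JMJD1B are older names of KDM3A and KDM3B, demethylases of lysine 9 on histone H3 that use iron as a cofactor. Both cultures shared the transfection reagent and growth medium, and each was measured on 1 array. The siRNA sequences were not used here, and effects on other transcripts were not tested. There is no replicate error, and no difference below carries a test.

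A cell takes up iron bound to transferrin through the transferrin receptor, reduces it in the endosome with a STEAP family reductase, and keeps what it does not use inside ferritin shells built of light (FTL) and heavy (FTH1) chains. NCOA4 carries ferritin to the lysosome, where the iron is released again. When iron is short, IRP1 (the ACO1 protein without its iron-sulfur cluster) and IRP2 bind hairpins called iron-responsive elements. Binding near the 5′ end of the ferritin mRNAs blocks their translation, and binding near the 3′ end of TFRC mRNA protects it from decay. FBXL5 senses iron and marks IRP2 for destruction when iron is plentiful. Ferritin control is thus largely a matter of translation, which an RNA array does not measure.

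The iron-responsive element of FTL can be read from its RefSeq start region, and it is shown because it is the hairpin through which IRP1 and IRP2 act on a gene measured here. The element was searched for as the loop letters CAGTG on the sense strand, followed by any base, with a C ahead of a stem of 5 pairs (G-T pairs allowed) that closes the loop. The search covered the 50 bases after each annotated start. Of 35116 start regions, 8 (0.023%) held it, and among the genes of the lists used here these were FTL and ALAS2, the erythroid enzyme of haem synthesis. The letters CAGTG alone stood in 6.48% of the regions. Capitals mark the loop letters, and both runs are from GRCh38.p14, FTL at chr19:48965341-48965357 on the plus strand, starting at base 33 of the transcript, and ALAS2 at chrX:55030947-55030963 on the minus strand, starting at base 15.
FTL iron-responsive element: cttcaaCAGTGtttgga
ALAS2 iron-responsive element: cgtcctCAGTGcagggc
The 2 hairpins share the loop letters while their stems differ in sequence. A match is a description of the letters, and no match in this short window says nothing about elements that lie further into a transcript.

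Of the 6 genes with a probe set, TFRC was lower on the AB-1 si array and the other 5 were higher, by the brightest probe set of each. STEAP3 differed most, at 2.72-fold higher. TFRC stood at 72.0% of its control signal, FTL at 145%, NCOA4 at 148%, FBXL5 at 149% and ACO1 at 113%. A gene was counted as measured if its mean log2 signal over both arrays reached the median of all probe sets, a signal of 50.4, and all 6 genes were. Of these 6 genes 1 passed 2-fold upward and none downward. Among all 12561 measured genes, 8.91% passed 2-fold upward and 8.53% downward, and with 6 genes a count of 1 is near that background. Of the 6 genes 5 were above 0, against 52.1% of all. The median log2 ratio was 0.55 over the 6 genes and 0.041 over all measured genes. By probe set, 3 of the 13 measured ones passed 2-fold upward and none downward. Among all 23360 measured probe sets with 1 gene symbol, 8.88% passed upward and 10.4% downward. The 3 include TFRC 240686_x_at, which passed the filter only through the array where it is high. With both arrays at or above the filter the count was 2 of 12. Of the 13, 10 were above 0, against 49.7% of all. At 1.5-fold, 1 of the 6 genes and 4 of the 13 probe sets passed upward and none downward, against 21.7% and 19.5% of all genes and 20.7% and 22.2% of all probe sets in each direction. At 3-fold none passed, against 2.28% and 2.26% of all genes and 2.41% and 3.22% of all probe sets.

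**Figure D1:**
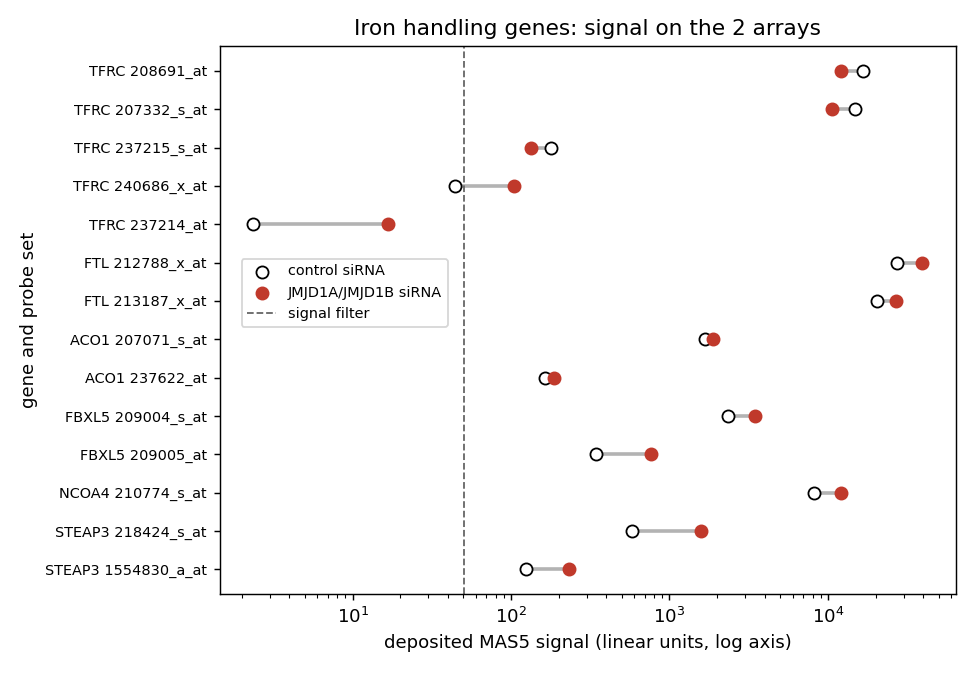
Deposited signal of each of the 14 probe sets (rows) on the Con si array (open circles) and the AB-1 si array (red), on a log axis in linear signal units, with the signal filter of 50.4 as a dashed line. The 3 brightest TFRC probe sets have the red circle on the left, and the remaining 11 probe sets have it on the right.

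The only scatter that these arrays give is that between probe sets of one gene. Over 6192 genes with 2 or more measured probe sets, a lone probe set had an SD of 0.54 in its log2 ratio, and that of a difference between 2 probe sets was 0.76. It covers how probes behave and leaves out the spread between cultures. Of the 6 genes, 3 lay beyond 0.54 (STEAP3, FBXL5 and NCOA4) and 3 within it (TFRC, FTL and ACO1). FBXL5 and NCOA4 exceeded it by very little, and FTL fell short of it by less still, at 0.534 against 0.536. That split belongs to the deposited scale, since TFRC lay beyond 0.54 under each of the 4 other scalings. FBXL5 at 0.49 and NCOA4 at 0.48 were within it with the arrays level on the median of all probe sets. NCOA4 was also within it after loess (0.32) and quantile normalization (0.36). With the arrays level on the hybridization controls, FBXL5 at -0.033 and NCOA4 at -0.046 were both within it.

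The scale of the arrays matters for every direction given here. The 18 hybridization control probe sets, which report foreign transcripts added before hybridization, had a median log2 ratio of 0.61 in favour of the AB-1 si array. With the arrays set level on those controls, TFRC would stand at -1.08, ACO1 at -0.43, FTL at -0.076, NCOA4 at -0.046, FBXL5 at -0.033 and STEAP3 at 0.83. By the brightest probe set of each, 5 of the 6 genes would thus be lower and STEAP3 alone higher. Of the dimmer probe sets, FBXL5 209005_at would stand at 0.54, TFRC 240686_x_at at 0.63 and STEAP3 1554830_a_at at 0.28, all higher. Those of FTL and ACO1 would be lower, at -0.22 and -0.42. The 3 brightest TFRC probe sets would then be the 3 that pass 2-fold, all in the lower direction, and the median of all measured genes would be -0.57. All directions below are on the deposited scale unless another is named. The order of the genes, from TFRC at the bottom through ACO1 to STEAP3 at the top, does not depend on any single factor applied to an array.

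Transferrin-bound iron enters the cell through the receptor encoded by TFRC, and its 5 probe sets did not all go the same way. The brightest, 208691_at, read 16743 on the Con si array and 12063 on the AB-1 si array, a log2 ratio of -0.47. The second, 207332_s_at, read 14791 and 10558, a log2 ratio of -0.49. The third, 237215_s_at, was far dimmer at 179 and 134, with a log2 ratio of -0.41. These 3 lay within 0.073 of each other, closer than the SD of 0.76 for a pair of probe sets. Each alone was within the probe-set SD of 0.54 on the deposited scale. After loess the 2 brightest stood at -0.80 and -0.79, after quantile normalization at -0.80 and -0.77, and with the arrays level on the median of all probe sets at -0.56 and -0.57, all beyond that SD.

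The 2 dimmest TFRC probe sets went the other way. Probe set 240686_x_at read 44.4 and 105, a log2 ratio of 1.24, or at least 2.08-fold higher when the control signal is raised to the filter. Probe set 237214_at lay below the filter on both arrays, at 2.36 and 16.9, and no fold is given for it. The mean over the 4 measured probe sets was -0.033, so the lower TFRC signal is a statement about the bright probe sets and is lost when the dim one counts equally. The 2 brightest were brighter than 99.1% to 99.2% of all probe sets on the Con si array. Which transcript or exon each probe set reports was not given in the sources used here.

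STEAP3, the endosomal reductase that converts the delivered iron to the form that can leave the endosome, was the member with the largest difference. Its brighter probe set, 218424_s_at, read 581 on the Con si array and 1580 on the AB-1 si array, 2.72-fold higher, with a log2 ratio of 1.44. That ratio was higher than those of 96.8% of all measured genes. The other probe set, 1554830_a_at, read 125 and 231, a log2 ratio of 0.89, under 2-fold. Both probe sets were thus higher and beyond the probe-set SD, and they were 0.56 apart. STEAP3 remained above 0 under each of the 9 alternatives run, between 0.83 and 1.55.

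FTL, the light chain of ferritin, which helps the iron core to form, was among the brightest transcripts on both arrays. Probe set 212788_x_at read 27080 and 39216, a log2 ratio of 0.53, and was brighter than 99.7% of all probe sets on each array. Probe set 213187_x_at read 20387 and 26673, a log2 ratio of 0.39. Both were higher on the AB-1 si array and lay 0.15 apart, each within the probe-set SD. The brightest probe sets as a whole were also higher, with a median log2 ratio of 0.33 in the brightest of 20 bins of equal number. After removal of that trend by loess the ratio of the brighter FTL probe set was 0.00065 and that of the other was -0.063. After quantile normalization they stood at -0.057 and -0.059. FTL was therefore higher on the deposited scale by about as much as other probe sets of its brightness. Both FTL probe sets are of the _x_at class, which marks probes that can match other transcripts, and signal from related ferritin sequences cannot be told apart from FTL. A probe set listed under FTH1P5, a processed pseudogene of the ferritin heavy chain, read 28307 and 40924, a log2 ratio of 0.53, and -0.013 after loess. It was chosen after its values were seen and also belongs to the _x_at class, and which ferritin heavy chain sequence it reports was not tested.

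NCOA4, the cargo receptor that delivers ferritin to the lysosome, has 1 probe set. It read 8147 on the Con si array and 12050 on the AB-1 si array, 1.48-fold higher, with a log2 ratio of 0.56. With no second probe set, no agreement between probes could be checked. After loess its ratio was 0.32, within the probe-set SD.

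FBXL5, the iron-sensing subunit of the ubiquitin ligase that removes IRP2, was higher by both of its probe sets. Probe set 209004_s_at read 2330 and 3477, a log2 ratio of 0.58. Probe set 209005_at read 344 and 762, a log2 ratio of 1.15 and 2.22-fold higher. The 2 differed by 0.57, less than the SD of 0.76 for a pair, and only the dimmer one passed 2-fold. Loess left both almost where they were, at 0.59 and 1.23.

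ACO1, the enzyme that works as cytosolic aconitase with its iron-sulfur cluster and as IRP1 without it, was the member nearest to 0. Probe set 207071_s_at read 1666 and 1886, a log2 ratio of 0.18, and 237622_at read 163 and 187, a log2 ratio of 0.19. The 2 probe sets lay 0.012 apart although 1 was much brighter. ACO1 stood higher than 58.0% of all measured genes. An mRNA level does not show how much of the protein carries the cluster.

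**Figure D2:**
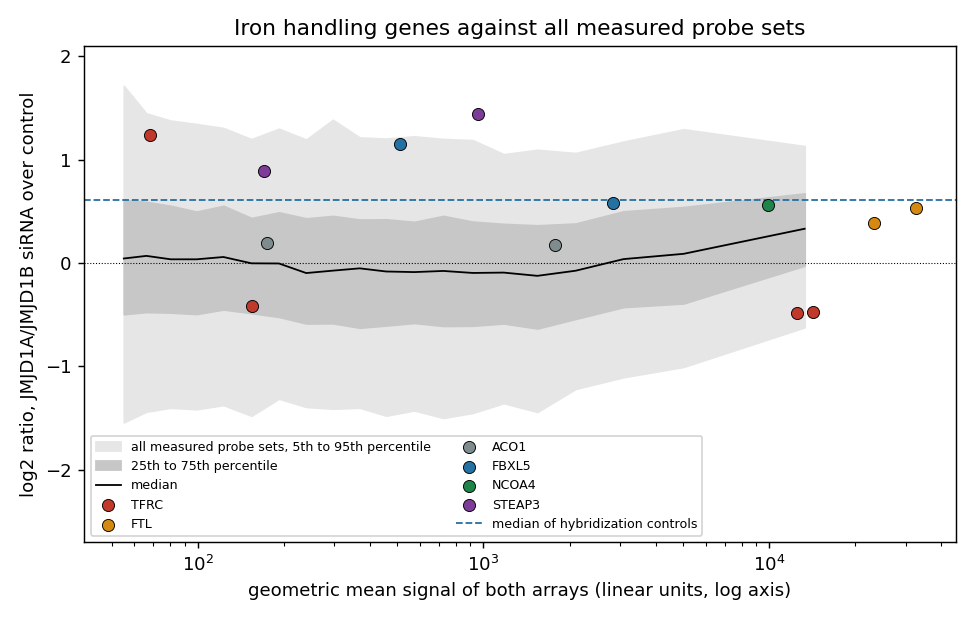
Log2 ratio of the AB-1 si array over the Con si array (vertical) against the geometric mean signal of both arrays (horizontal, linear units on a log axis) for the 13 measured probe sets, coloured by gene, over the 5th to 95th and 25th to 75th percentiles and the median (black) of all 23360 measured probe sets in 20 bins of equal number. The 2 bright TFRC probe sets lie below the 25th percentile line at their signal, whereas STEAP3 at 1.44 lies above the 95th, and the black line climbs to 0.33 in the brightest bin.

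Because every probe set on an array shares the same factor, the difference between the log2 ratios of 2 genes does not depend on how the arrays were scaled as a whole. FTL minus TFRC, storage against uptake, was 1.01 by the brightest probe sets, so that FTL signal relative to TFRC signal was 2.01-fold higher on the AB-1 si array than on the Con si array. FBXL5 minus TFRC was 1.05, NCOA4 minus TFRC 1.04, ACO1 minus TFRC 0.65 and STEAP3 minus TFRC 1.92. On the deposited signals all but the ACO1 difference exceed the SD of 0.76 for a pair of probe sets. After loess the ACO1 difference was beyond it too, at 1.06. Of the 8 pairs that 2 FTL and 4 TFRC probe sets form, 6 were above 0, and the 2 below 0 were those with the dim TFRC probe set 240686_x_at. For the other genes, 6 of 8 pairs were above 0 for ACO1, 6 of 8 for FBXL5, 3 of 4 for NCOA4 and 7 of 8 for STEAP3. By the mean over the probe sets of each gene the FTL minus TFRC difference was 0.49, under that SD. After loess it was 0.80 and after quantile normalization 0.74.

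**Figure D3:**
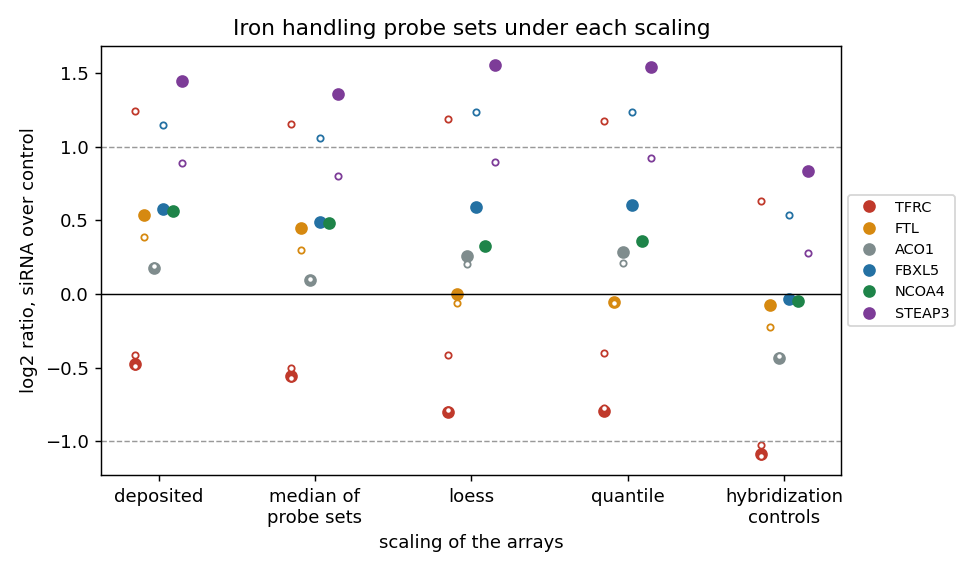
Log2 ratio of the 13 measured probe sets (vertical) under the deposited scaling and 4 other ways to set the arrays level (horizontal), with the brightest probe set of each gene as a large filled circle and its others as small open ones, and 2-fold as dashed lines. The brightest TFRC probe set runs from -0.47 to -1.08 and is below 0 in every column. The brightest of STEAP3 runs from 1.55 to 0.83 and is above 0 in every column. The brightest of FTL, FBXL5, NCOA4 and ACO1 all fall below 0 on the hybridization controls, while the other FBXL5 probe set stays above 0.

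The promoters of TFRC and FBXL5 are shown because hypoxia-inducible factors, whose DNA motif has the core letters ACGTG or GCGTG, are known to act on TFRC in other cells, and because FBXL5 carries the same core within a palindrome. Start regions from RefSeq were found for 7 of the 8 genes. In the 250 bases before the start, on both strands, ACGTG stood in TFRC, FBXL5 and FTL, and in 18.5% of all 35116 regions. GCGTG stood in ACO1, IREB2 and FTL, and in 32.2% of all regions. CACGTG, which contains ACGTG on both strands, stood in FBXL5 and in 6.34% of all regions. TGACNNNGC, the core of the antioxidant response element bound by NRF2, stood in FBXL5 and in 10.9% of all regions. Neither STEAP3 nor NCOA4 held any of these letters in the window. Capitals mark ACGTG in TFRC, where it begins 88 bases before the start, and CACGTG in FBXL5. The runs are from GRCh38.p14, TFRC at chr3:196082147-196082206 and FBXL5 at chr4:15655446-15655505, both on the minus strand and ending before the transcribed part.
TFRC promoter: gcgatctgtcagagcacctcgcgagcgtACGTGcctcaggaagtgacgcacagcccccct
FBXL5 promoter: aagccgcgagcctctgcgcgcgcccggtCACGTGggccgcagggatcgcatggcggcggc
Of the genes that hold the ACGTG core, TFRC stood at -0.47, FBXL5 at 0.58 and FTL at 0.53 on the deposited scale. On the hybridization controls they would stand at -1.08, -0.033 and -0.076. Whether the core letters bear on these values was not tested. Binding was not measured on these arrays.

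The rest of the pathway was read from 8 lists with 88 distinct genes, of which 80 had a probe set and 73 were measured. Past 2-fold upward were 5 of the 73 (6.85%), and 5 (6.85%) were past it downward, both near the 8.91% and 8.53% of all measured genes. The median log2 ratio over the 73 was 0.12. With the arrays level on the hybridization controls, none would pass upward and 18 (24.7%) would pass downward, against 2.15% and 27.7% of all measured genes on that scale.

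In the list of iron uptake, reduction and export, 1 of 13 measured genes passed 2-fold upward and none downward, and the median was 0.17. The gene that passed was SLC22A17, a receptor for the iron carrier lipocalin-2, at 51.3 and 110.0, a log2 ratio of 1.10 at a signal close to the filter. Some further genes are given for their role, and were chosen after their values were seen. STEAP1, a relative of STEAP3, read 1840 and 3567 (log2 ratio 0.96), while the relative STEAP2 read 500 and 461 (-0.11), and both STEAP4 probe sets lay below the filter. TFR2, the second transferrin receptor, stood at -0.85 and -0.26 by its 2 measured probe sets, the same direction as the bright TFRC ones. SLC11A2, the transporter that moves the reduced iron out of the endosome, had a log2 ratio of 0.036 by its brightest probe set, and of 0.080 and 0.55 by 2 more. The exporter gene SLC40A1, encoding ferroportin, was near the filter at 43.8 and 66.2.

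Among genes that load or turn over ferritin, none of 8 passed 2-fold upward and 1 passed downward, and the median was 0.43. HERC2, the ubiquitin ligase that acts on NCOA4, read 854 and 374, 2.28-fold lower with a log2 ratio of -1.19. On the deposited scale it was thus on the other side of 0 from NCOA4 at 0.56. With the arrays level on the hybridization controls both would be below 0, HERC2 at -1.80 and NCOA4 at -0.046. A relation between these 2 mRNAs was not tested. PCBP1, the main iron chaperone for ferritin, stood at 0.13, and was chosen after its value was seen. In the IRP2 degradation complex, none of 5 genes passed 2-fold in either direction, with a median of 0.29. The largest difference there was CIAO1, a cytosolic iron-sulfur assembly factor, at -0.60 by its brightest probe set, and 0.011 and -0.57 by the others. SKP1 and RBX1, partners of FBXL5 in the ligase, and the scaffold CUL1 were chosen after their values were seen. By the brightest probe set they stood at 0.56, 0.53 and -0.41. The other SKP1 probe sets stood at 0.66, -0.14 and -0.28, and the other of CUL1 at 0.40. After loess the brightest of SKP1 stood at 0.039 and RBX1 at 0.26.

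In the list of other mRNAs with an iron-responsive element, 3 genes were measured and 1 passed 2-fold, upward. This list is not complete, and genes placed in another list, such as SLC11A2 and SLC40A1, are not counted in it. EPAS1, which encodes the hypoxia-inducible factor HIF-2 alpha, read 2352 and 5135, 2.18-fold higher with a log2 ratio of 1.13. ALAS2, whose hairpin is printed above, had both of its probe sets below the filter. The remaining 2 measured genes, chosen after their values were seen, were CDC14A at -0.22 and CDC42BPA at -0.28 by the brightest probe set. Other measured probe sets stood at -0.50 for CDC14A, and at -0.88 and -0.50 for CDC42BPA.

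Genes of mitochondrial iron import and iron-sulfur cluster assembly had a median of -0.31 over 20 measured genes. Of these, 11 were below 0 and 9 above, against 52.1% of all measured genes above 0. Of the 20, 1 passed 2-fold downward and none upward, against 8.53% and 8.91% of all measured genes. That gene was FDX2, the ferredoxin that feeds electrons to cluster assembly, at 776 and 300.0, 2.59-fold lower (-1.37). The 2 mitochondrial iron importers, chosen after their values were seen, stood apart. SLC25A28 had log2 ratios of -0.96 and -1.45 by its measured probe sets. SLC25A37 stood at 0.44 by the brightest of its 9, which ranged from -0.091 to 1.85. In the cytosolic assembly list 1 of 9 passed 2-fold downward and none upward, and the median was -0.076. It was CIAO3, at 320 and 132, 2.42-fold lower (-1.27).

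In haem synthesis, which ends with the insertion of iron, none of 8 genes passed 2-fold in either direction, and the median was 0.31. By the brightest probe set on the deposited scale 7 were above 0, against 52.1% of all measured genes. On the hybridization controls UROS, PPOX and TMEM14C alone would stay above 0. Other measured probe sets stood below 0 for ALAD (-0.32), UROS (-0.12 and -0.14) and FECH (-0.43), and above 0 for FECH (0.091), UROD (0.12) and PPOX. PPOX, the enzyme before iron insertion, was highest at 0.81. Its other measured probe set read 36.3 and 85.2, with only the second above the filter, and was at least 1.69-fold higher against it. Haem breakdown and transport had the most genes past 2-fold, with 3 of 9 higher and 2 lower, against 8.91% and 8.53% of all measured genes. HMOX1, the inducible haem oxygenase that opens the haem ring and frees its iron, read 638 and 265, 2.40-fold lower (-1.26). The biliverdin reductases that act after it went the other way. BLVRA read 1994 and 4514 (1.18), with its 4 measured probe sets between 1.07 and 1.27, and BLVRB read 4253 and 9074 (1.09). BLVRB fell short of 2-fold after loess (0.96) and quantile normalization (0.99). FLVCR1, a haem exporter, was 2.27-fold lower (-1.18), with the other probe set at -1.10. The third higher gene, ABCC5, was named outside the rule and had probe sets at 1.00, -0.27 and 1.34, the first of them 0.92 with the arrays level on the median of all probe sets. On the hybridization controls none of the 3 higher genes would pass 2-fold, with BLVRA at 0.57, BLVRB at 0.48 and ABCC5 at 0.39. HMOX2, the other haem oxygenase in this list, was named after its values were seen. It was brighter than HMOX1, at 2118 and 1719 (-0.30), with its other probe set at -0.50, both within the probe-set SD of 0.54. Within this list HMOX1 was thus past 2-fold lower, HMOX2 was not, and the biliverdin reductases were higher, each on 1 pair of arrays.

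**Figure D4:**
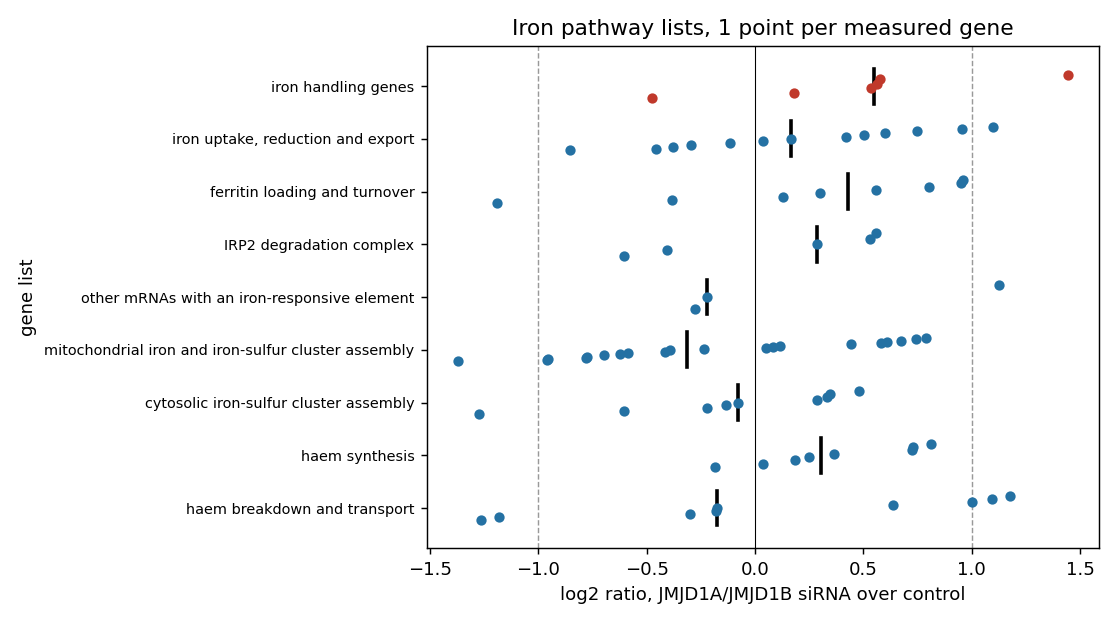
Log2 ratio of the AB-1 si array over the Con si array (horizontal) for each measured gene by its brightest probe set, with 1 row for the iron handling genes (red) and 1 for each of the 8 pathway lists (blue), the list median as a black bar and 2-fold as dashed lines. STEAP3 at 1.44 is the rightmost point of the figure, and 5 genes of the pathway lists lie beyond each dashed line.

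The arrays were checked against their labels. KDM3B read 3031 and 496 by its brighter probe set (log2 ratio -2.61), whereas KDM3A read 3884 and 3323 (-0.22). On the deposited scale the array labelled for both siRNAs thus showed a clearly lower transcript for 1 of the 2 targets. With the arrays level on the hybridization controls, KDM3B would stand at -3.22 and KDM3A at -0.84. The median of all measured genes would be -0.57 on that scale. Epithelial markers were measured for 8 of 9 genes, and over these the signals summed to 79131 and 121776. Of the 8, 6 were above 0, while KRT20 stood at -0.99 and CDX2 at -0.46. Among markers of other cells, 2 of 8 erythroid, 2 of 7 macrophage and 1 of 6 hepatocyte genes were measured, and over the measured ones the signals summed to 414 and 749, 147 and 176, and 84.3 and 64.9. Their part in the differences was not tested.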

How the data were processed

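Total RNA from 1 culture per condition was labelled with biotin from 0.5 ug and measured on 1 array each, per the labels' protocols. The authors deposited linear intensity values for 54675 probe sets. Per the submitters' processing notes these come from MAS5, whose version and parameters are not given in the sources used here. With 2% trimmed from either end, both arrays had a mean of 500.1, so the authors' scaling made them level as wholes.

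Here log2 of the signals was used, without a pseudocount, and each ratio is AB-1 si (JMJD1A and JMJD1B siRNAs) over Con si (control siRNA). Names came from the platform annotation, where 41091 probe sets carried 1 symbol, 1801 several and 11721 none. All 6 gene IDs with a probe set were found in RefSeq with their symbols unchanged. A gene's brightest probe set over both arrays stands for it. With 1 array per group no test was possible. The small number of arrays limits precision, and differences are read against the scatter between probe sets and the share of all genes past 2-fold.

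The genes named are the 8 members, KDM3A and KDM3B, and up to 4 genes per list with the largest ratio among those past 2-fold, or else the 1 with the largest. Others are named for their role, and the text says where they were chosen after their values were seen. No gene was sought for a pattern like a member's, since 2 arrays give 1 ratio per gene. The members and lists were chosen with earlier results of these data known. Alternatives were 4 scalings, a pseudocount of 32, other filters, other uses of probe sets, and fold thresholds of 1.5 and 3. Python 3.11.15, numpy 2.4.6, pandas 2.3.3 and statsmodels 0.14.6 (loess, span 0.3) were used, and the procedure was tested on simulated data. Start regions are those of RefSeq, GRCh38.p14.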

Additional observations from a re-analysis of the deposited data

Results flagged for a closer look

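Data outside the gene comparison also carried a difference between the arrays. The 18 hybridization control probe sets had a median log2 ratio of 0.61 (AB-1 si over Con si), with a range from 0.40 to 0.71. The probe set listed under the ferritin heavy chain pseudogene FTH1P5, which belongs to none of the 8 genes, had a log2 ratio of 0.53, on signals of 28307 and 40924.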

How the results depend on the processing

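Of the alternatives run, 10 of 11 left the count of iron handling genes past 2-fold at 1, but on the hybridization controls that gene was TFRC, lower, and without _x_at and _s_at probe sets it was FBXL5, higher, in both cases not STEAP3; no gene passed at 3-fold (0). The count of probe sets, 3 of 13, was 1 of 4 without _x_at and _s_at probe sets, which leaves FTL and NCOA4 with none, 2 of 12 with both arrays at or above the filter, 2 of 13 with a pseudocount of 32, and 0 at 3-fold. The TFRC probe set 240686_x_at passed the filter only through the array where it is high. The median log2 ratio of the 6 genes was 0.55 and -0.061 on the hybridization controls, 0.29 after loess and 0.32 after quantile normalization. Of the 73 measured pathway genes, 10 were past 2-fold. This became 18 on the hybridization controls, all lower, where 27.7% of all measured genes were 2-fold lower. The count was 17 of 80 with no signal filter, 33 at 1.5-fold (against 21.7% of all genes higher and 19.5% lower) and 0 at 3-fold. Without the filter the share of all genes past 2-fold was not computed, so the 17 has no background beside it. Without _x_at and _s_at probe sets FBXL5 stood at 1.15 and STEAP3 at 0.89. The cause of these moves was not tested, beyond the shift of 0.61 and the fewer or more probe sets that the alternatives themselves bring. The FTL minus TFRC difference was added after seeing the data. No paired analysis was possible because each group has 1 array. Signals near the filter of 50.4, such as SLC22A17, SLC40A1 and the dim TFRC probe set, are the least certain.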
